A study of Mus musculus with 8 samples.

Results

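The genes described here encode the proteins of the cytosolic ribosome, together with paralogs of single subunits. They were chosen by name: a probe set had to carry only 1 gene symbol, made of Rpl or Rps and the number of a subunit, with or without a paralog ending such as l or l1, or 1 of the symbols Rplp0, Rplp1, Rplp2 and Rpsa. The naming rule itself uses no measured value, but it was set with earlier results of these data known. The rule found 104 probe sets of 48 genes, out of 18193 genes with such probe sets on the array. Of these, 46 genes with 96 probe sets passed the expression minimum and were tested, 41 common subunits (19 of the 40S subunit, 20 of the 60S subunit and 2 of the P stalk) and 5 paralogs, Rpl22l1, Rpl39l, Rpl7l1, Rps27l and Rps4l. The paralog Rpl3l and the subunit gene Rps16 stayed below the minimum on every array.

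RNA was hybridised to Affymetrix mouse arrays from V6.5 mouse embryonic stem cells (ESCs) of 2 lines. All cells carried a lentiviral shRNA against the endogenous mouse Wdr5 mRNA and a human WDR5 gene under a doxycycline-inducible promoter with its transactivator, and were sorted for GFP. WDR5 is a scaffold protein of the MLL histone methyltransferase complexes, which act on lysine 4 of H3. One line expressed wild-type WDR5 (WT) and the other F266A, a substitution in the surface cleft that binds RNA. Each line was grown with 2 µg per mL doxycycline (+dox) or without it (-dox), so that the 8 arrays fall into 4 groups of biological duplicates. Every group carried the shRNA, and none therefore shows cells with untouched Wdr5. Each version was carried by a single line, so that the substitution and other differences between the lines cannot be told apart, and the study describes less F266A than WT protein. Nothing states that the duplicates came from separate infections, so p-values measure the spread between these samples only.

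A ribosome holds 1 copy of most of its proteins, and cells make these proteins in matched amounts. Their mRNAs are among the most abundant of a dividing cell, and many begin with a stretch of pyrimidines, the terminal oligopyrimidine or TOP motif, through which mTOR controls their translation. Paralogs are encoded by separate genes and can take the place of a subunit or serve outside the mature ribosome. RPL39L replaces RPL39 and is best known from the male germline, RPS27L is a p53-induced relative of RPS27, RPL7L1 acts in the assembly of the large subunit, and RPL3L belongs to heart and skeletal muscle.

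Start sites of the paralogs are shown beside those of common subunits because the TOP motif lies at the first transcribed base. The windows below come from RefSeq (assembly GRCm38.p6) and run from 20 bases before the annotated start to 29 bases after it. The start is thus the 21st letter, and the longest run of C or T is in capitals.
Rpl22l1, chr3:28805488-28805537, plus strand: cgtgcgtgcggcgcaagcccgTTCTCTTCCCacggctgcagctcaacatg
Rpl39l, chr16:10170208-10170257, plus strand: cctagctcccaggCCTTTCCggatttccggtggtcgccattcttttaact
Rpl7l1, chr17:46782627-46782676, minus strand: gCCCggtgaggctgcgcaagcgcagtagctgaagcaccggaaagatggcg
Rps27l, chr9:66946066-66946115, plus strand: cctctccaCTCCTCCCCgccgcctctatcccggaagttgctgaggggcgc
Rps27, chr3:90213619-90213668, minus strand: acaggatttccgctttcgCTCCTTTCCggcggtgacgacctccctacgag
Rps6, chr4:86857338-86857387, minus strand: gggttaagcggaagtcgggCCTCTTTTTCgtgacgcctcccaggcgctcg
Rpl27a, chr7:109519175-109519224, plus strand: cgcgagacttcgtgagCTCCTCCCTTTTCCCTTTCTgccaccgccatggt
Rps25, chr9:44407694-44407743, plus strand: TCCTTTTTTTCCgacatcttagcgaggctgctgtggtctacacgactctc
Of the 46 tested genes, 40 were in the promoter table. A start base C followed without a break by C or T, with at least 5 such letters in all, was annotated for 8 of 36 common subunits (22.2%), as in Rps27 and Rps6, for 0 of 4 paralogs and for 3.01% of all 27025 genes of the table. In Rpl22l1 a run of 10 pyrimidines begins 1 base after the annotated start. A run of at least 8 within the window was found for 58.3% of the common subunits, for 2 of 4 paralogs and for 21.5% of all genes. In the whole 300 bases of a promoter, CCGGAAGT, the core of an ETS site, occurred on either strand in 25% of the common subunits, in 1 paralog (Rps27l) and in 4.31% of all genes, and the E-box CACGTG in 11.1% of the common subunits, in none of the 4 paralogs and in 8.09% of all genes. These are matches of letters to annotated starts, which can differ from the starts used in these cells.

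Values are log2 signals, and arrays of one group correlated at 0.997 to 0.998 across probe sets, arrays of different groups at 0.985 to 0.996. All 8 ESC markers exceeded the minimum, with a summed signal of 15.79 in WT +dox, 15.70 in WT -dox, 15.64 in F266A +dox and 15.42 in F266A -dox on the log2 scale. Esrrb read 9.64 and 9.65 in the first of these groups and 8.54 and 8.59 in the last, and Nanog 12.70 and 12.70 against 11.92 and 11.78. These had the largest falls of the 8 markers. Sox2, Zfp42, Dppa5a and Tdgf1 were lower in the last group too. Pou5f1 changed less, from 12.921 and 12.875 to 12.831 and 12.719, and Utf1 overlapped, with 7.747 and 7.585 against 7.714 and 7.671. A probe set above the minimum on at least 1 array was found for 1 of 11 fibroblast markers (Col1a2), 4 of 5 trophoblast markers and 2 of 5 primitive endoderm markers (Gata6 and Dab2). Averaged over all their probe sets, Col1a2, Gata6 and Dab2 were below 5.64 on all 8 arrays. The summed signal of all members of these 3 lists, those below the minimum included, lay at 7.91 to 8.05, 9.54 to 9.88 and 6.95 to 7.09 over the groups. Trophoblast markers went in different directions from WT +dox to F266A -dox. Tfap2c fell from 9.25 and 9.31 to 8.56 and 8.46, and Hand1 read 5.84 and 5.69 against 5.65 and 5.68. Eomes rose from 7.76 and 7.78 to 8.18 and 8.10, and Cdx2 from 5.18 and 4.89 to 5.63 and 5.66. Elf5 overlapped between these groups. The first mouse Wdr5 probe set read 9.68 to 9.83 in +dox and 10.30 to 10.62 in -dox arrays, in both lines higher without the inducer. The probe set for the middle of 18S ribosomal RNA read 10.99 and 11.42 in WT cells with doxycycline and 10.78 and 11.13 without it, against 10.35 and 10.61 in F266A cells with doxycycline and 9.57 and 9.60 without it. The difference between 3' and 5' probe sets of Gapdh, a measure of how intact the RNA was, ranged from 0.10 to 0.13 over the WT arrays and from 0.14 to 0.17 over the F266A arrays, whereas that of Actb was larger in WT (0.69 to 0.74) than in F266A (0.53 to 0.63). The part of these signals in the line differences below was not tested.

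Most of the 46 ribosomal protein genes were not called in any comparison, and only Rpl39l changed by 2-fold or more, but the number of calls depended on how the variance was estimated. Changes were called in limma where the p adjusted by Benjamini-Hochberg over 11940 genes was under 0.05. On withdrawal of wild-type WDR5 (WT -dox minus WT +dox), 4 of the 46 genes rose and 3 fell, against 16.1% and 15.4% of all genes. With the mutant in place of the wild type (F266A +dox minus WT +dox), 0 rose and 6 fell, against 15.9% and 12.5% of all genes, so that the 6 falls (13%) were close to the share over all genes. With a trended variance prior 2 rose and 16 fell, where 14.1% of all genes fell. By a SAM-type statistic 3 rose and 19 fell, for which no share over all genes is given here. On withdrawal of F266A (F266A -dox minus F266A +dox), 4 rose and 1 fell, against 8.94% and 10.6% of all genes. Without doxycycline (F266A -dox minus WT -dox), 1 was higher in the mutant line and 3 were lower, against 14% and 13.4% of all genes. The 2 withdrawals differed for 3 genes (interaction of line and withdrawal), 1 with a more positive and 2 with a more negative response in F266A, against 2.21% and 2.94% of all genes. At an unadjusted p under 0.05 in limma, 1 of the 46 genes rose and 11 fell with the mutant, against 2601 and 2164 of all 11940 genes. The median difference of the 46 genes was -0.02, -0.05, 0.01, -0.03 and 0.04 in these 5 comparisons, and that of all genes lay between -0.01 and 0.00. These comparisons share arrays, so their results are not independent. In bulk RNA, fewer cells of a type and less RNA per cell cannot be told apart.

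Rpl22l1, the paralog of RPL22, had the largest change with the mutant among the 46 genes. Its 1 probe set matches alternative transcripts of the same gene. It read 12.81 and 12.67 in WT cells with doxycycline and 12.31 and 12.34 without it, against 11.85 and 11.85 in F266A cells with doxycycline and 12.24 and 12.09 without it. Both WT +dox arrays were above all others and both F266A +dox arrays below all others, while WT -dox and F266A -dox lay between them. Rpl22l1 fell by 0.89 ± 0.08 with the mutant (log2 difference ± SE, adjusted p = 4.99e-05, limma, n = 2 and 2). It fell by 0.42 ± 0.08 on withdrawal of the wild type (adjusted p = 0.00326, limma) and rose by 0.31 ± 0.08 on withdrawal of F266A (adjusted p = 0.0205, limma). The withdrawals thus moved it in opposite directions, and their difference was 0.73 ± 0.11 (adjusted p = 0.00783, limma). The neighbouring groups WT -dox and F266A -dox differed by -0.16 ± 0.08, which did not pass the test (adjusted p = 0.15, limma). The rise on F266A withdrawal was no longer called without F266A +dox replicate 1 (0.31, adjusted p = 0.0959, limma), F266A +dox replicate 2 (0.32, adjusted p = 0.0853, limma) or F266A -dox replicate 1 (0.24, adjusted p = 0.0948, limma).

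Averaged over its probe sets, the parent Rpl22 moved less than its paralog. Its mean over 3 probe sets was 12.78 and 12.80 in WT cells with doxycycline and 12.50 and 12.55 without it, against 12.56 and 12.54 in F266A cells with doxycycline and 12.40 and 12.42 without it. When the parent's value was subtracted from every gene before the fit, Rpl22l1 lost 0.65 ± 0.08 against Rpl22 with the mutant (adjusted p = 0.000258, limma) and gained 0.45 ± 0.08 on withdrawal of F266A (adjusted p = 0.0042, limma). On withdrawal of the wild type the pair differed by -0.15 ± 0.08 (adjusted p = 0.126, limma) and between the uninduced lines by -0.05 ± 0.08 (adjusted p = 0.685, limma), neither of which passed. The pair's differences depended on the parent's probe sets, which disagree. The dimmest Rpl22 probe set differed by -0.71 on withdrawal of the wild type, a larger fall than that of Rpl22l1 (-0.42). With the mutant it differed by -0.68, closer to Rpl22l1 (-0.89) than the mean of Rpl22 was. The pair was not tested against that probe set alone. With the brightest probe set of Rpl22 as the parent, the pair differed by -0.36 on withdrawal of the wild type (adjusted p = 0.00804, limma). With the mutant it then differed by -0.865 (adjusted p = 0.000142, limma). With the trended prior the difference on withdrawal of the wild type was called as well (-0.15, adjusted p = 0.0297, limma). The interaction of the pair was 0.60 ± 0.11 (adjusted p = 0.0145, limma). That subtraction gives all genes the parent's error, so each pair was also tested on its own residual spread. The first 2 differences were then called again (adjusted p = 0.00848 and 0.0357 in the linear model) and the interaction was not (adjusted p = 0.0773 in the linear model). The interaction was also lost without WT +dox replicate 1 (0.53), WT -dox replicate 1 (0.61), WT -dox replicate 2 (0.595) or F266A +dox replicate 1 (0.59), with adjusted p between 0.0503 and 0.0636.

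Rpl39l, the paralog of RPL39, separated the lines. It read 11.43 and 11.45 in WT cells with doxycycline and 11.77 and 11.81 without it, against 10.85 and 10.93 in F266A cells with doxycycline and 10.68 and 10.70 without it. Every F266A array was below every WT array. Rpl39l differed between F266A and WT by -0.55 ± 0.06 with doxycycline (adjusted p = 0.00029, limma) and by -1.10 ± 0.06 without it (adjusted p = 1.13e-05, limma), the only change of 2-fold or more among these genes in the 4 comparisons between groups. It rose by 0.35 ± 0.06 on withdrawal of the wild type (adjusted p = 0.00327, limma). On withdrawal of F266A the difference was -0.20 ± 0.06, just outside the threshold (adjusted p = 0.0578, limma). The responses to withdrawal differed by -0.55 ± 0.09 (adjusted p = 0.0116, limma), a call lost without WT -dox replicate 2 (-0.53, adjusted p = 0.0527, limma) or F266A +dox replicate 2 (-0.51, adjusted p = 0.0529, limma).

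The comparison of Rpl39l with its parent was limited by the parent. Rpl39 was measured by 1 probe set near the expression minimum of 5.64, at 6.90 and 6.61 in WT cells with doxycycline and 6.73 and 6.76 without it, against 6.80 and 6.77 in F266A cells with doxycycline and 6.71 and 6.70 without it. The WT +dox duplicates spanned all other arrays. After subtraction of Rpl39, Rpl39l differed between F266A and WT by -0.58 ± 0.14 with doxycycline (adjusted p = 0.000833, limma) and by -1.06 ± 0.14 without it (adjusted p = 1.12e-11, limma), but on the pair's own residual spread neither was called (adjusted p = 0.116 and 0.0683 in the linear model). Without F266A +dox replicate 1 the first was -0.52 (adjusted p = 0.0792, limma). The other 3 comparisons of the pair did not pass the test.

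Rpl7l1 rose on both withdrawals. Its 3 probe sets averaged 9.41 and 9.50 in WT cells with doxycycline and 9.81 and 9.81 without it, against 9.60 and 9.47 in F266A cells with doxycycline and 9.86 and 9.79 without it. In both lines the -dox arrays were above the +dox arrays. The rise was 0.35 ± 0.07 in WT (adjusted p = 0.00596, limma) and 0.28 ± 0.07 in F266A (adjusted p = 0.0248, limma), and the difference between them was -0.07 ± 0.10 (adjusted p = 0.764, limma). With doxycycline the lines differed by 0.08 ± 0.07 (adjusted p = 0.458, limma). The 3 probe sets were less alike on withdrawal of F266A than of the wild type, where they gave 0.26 to 0.40. On withdrawal of F266A, 2 gave 0.34 and 0.40. The third, with a mean of 10.36, gave 0.12 ± 0.07 (adjusted p = 0.311 in a limma fit of single probe sets). The call in F266A was lost without F266A +dox replicate 2 (0.22), F266A -dox replicate 1 (0.25) or F266A -dox replicate 2 (0.32), with adjusted p between 0.0545 and 0.14. Against its parent Rpl7, which had a mean of 13.41 and no call, Rpl7l1 rose by 0.37 ± 0.08 on withdrawal of the wild type (adjusted p = 0.0051, limma, and 0.0394 on the pair's own spread). In F266A the pair differed by 0.22 ± 0.08 (adjusted p = 0.0808, limma).

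Rps27l and Rps4l were not called in any comparison. Rps27l read 13.49 and 13.45 in WT cells with doxycycline, 13.37 and 13.38 without it, 13.53 and 13.53 in F266A cells with doxycycline and 13.45 and 13.44 without it, and its differences lay between -0.10 and 0.07. Rps4l read 12.90 and 12.93, 13.02 and 13.01, 13.04 and 12.97, and 12.90 and 12.92 in the same order, with differences between -0.11 and 0.10. Against their parents Rps27 (mean 7.74, 1 probe set) and Rps4x (mean 10.09), neither differed in any comparison (adjusted p of 0.196 or more, limma). The muscle paralog Rpl3l read 3.58 to 4.30 and Rps16 3.33 to 3.80, both below 5.64 on all 8 arrays.

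**Figure D1:**
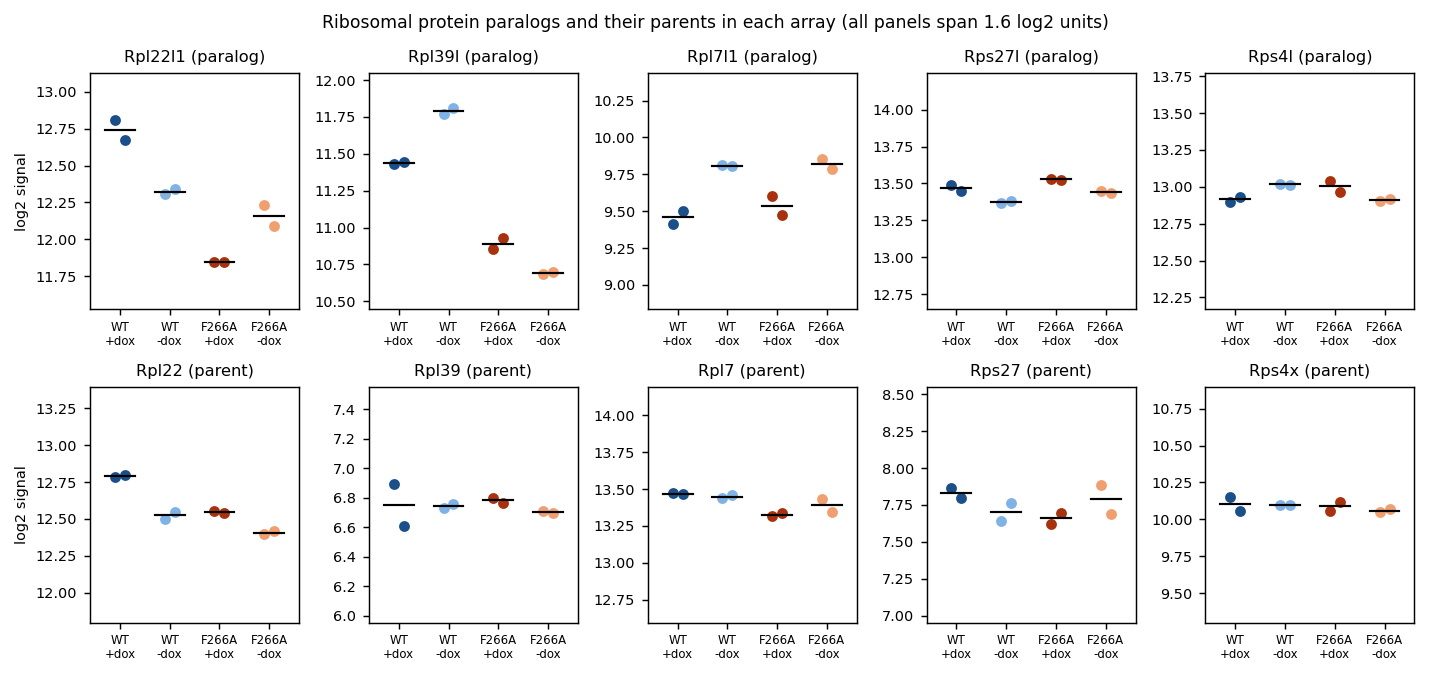
Log2 signal (vertical axis, panels of equal span) of 5 paralogs (upper row) and their parents (lower row) in the 4 groups, with 1 point for each array and a line at the group mean of 2 arrays. Rpl22l1 is highest with induced WT and lowest with induced F266A, Rpl39l is lower in all F266A arrays, Rpl7l1 is higher in both -dox groups, and Rps27l and Rps4l stay within 0.2 units.

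Among proteins of the 40S subunit 4 genes were called. Rps25, which 40S subunits need for initiation at some viral internal ribosome entry sites, read 11.48 and 11.56 in WT cells with doxycycline and 11.80 and 11.86 without it, against 11.76 and 11.74 in F266A cells with doxycycline and 11.54 and 11.34 without it. It was thus above the WT +dox arrays in WT -dox and below the F266A +dox arrays in F266A -dox. It rose by 0.31 ± 0.08 on withdrawal of the wild type (adjusted p = 0.0164, limma) and fell by 0.32 ± 0.08 on withdrawal of F266A (adjusted p = 0.0243, limma), with an interaction of -0.63 ± 0.11 (adjusted p = 0.0173, limma). Without doxycycline its difference between F266A and WT was -0.39 ± 0.08 (adjusted p = 0.00627, limma). Both withdrawal calls and the interaction depended on single arrays. Without WT +dox replicate 1 or WT -dox replicate 2 the WT rise was 0.27 and 0.28 (adjusted p = 0.0901 and 0.0967, limma), and without F266A +dox replicate 1, F266A +dox replicate 2 or F266A -dox replicate 2 the F266A fall was -0.31, -0.32 and -0.21 (adjusted p = 0.117, 0.0909 and 0.133, limma). The interaction was -0.59, -0.595, -0.62 and -0.64 without WT +dox replicate 1, WT -dox replicate 2, F266A +dox replicate 1 and F266A +dox replicate 2, with adjusted p between 0.0618 and 0.0766.

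Rps6, the subunit phosphorylated by S6 kinases, read 9.27 and 9.30 in WT cells with doxycycline and 9.56 and 9.48 without it, against 9.47 and 9.38 in F266A cells with doxycycline and 9.76 and 9.78 without it. Its -dox arrays were above the +dox arrays in each line. It rose by 0.23 ± 0.07 on withdrawal of the wild type (adjusted p = 0.0273, limma) and by 0.34 ± 0.07 on withdrawal of F266A (adjusted p = 0.00897, limma), and without doxycycline it was higher in F266A by 0.25 ± 0.07 (adjusted p = 0.0236, limma). All 3 calls ended when the probe sets under the minimum were averaged in (0.09, 0.26 and 0.26, adjusted p = 0.647, 0.145 and 0.116, limma). Leaving out any array of its contrast ended the first call (0.19 to 0.27, adjusted p 0.0612 to 0.171) and the third (0.21 to 0.29, adjusted p 0.0549 to 0.161), and leaving out F266A +dox replicate 2 ended the second (0.29, adjusted p = 0.0618, limma).

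Rps20 and Rps24 fell with the mutant, and in both the probe sets of lower signal had the larger differences. The mean of Rps20 was 10.27 and 10.35 in WT cells with doxycycline and 10.11 and 10.12 without it, against 9.91 and 9.87 in F266A cells with doxycycline and 10.03 and 9.86 without it, a fall with the mutant of 0.42 ± 0.08 (adjusted p = 0.00316, limma). Of its 4 probe sets, those with means of 6.30 and 5.64 gave -0.75 ± 0.09 and -0.79 ± 0.14 (adjusted p = 0.000526 and 0.00362 in a limma fit of single probe sets). The second of them passed the minimum only in WT arrays and was below 5.64 on all F266A arrays (5.06 to 5.52), so its value there is near background. Those with means of 14.25 and 14.07 gave -0.06 ± 0.07 and -0.07 ± 0.07 (adjusted p = 0.559 and 0.496, limma). Rps24, a subunit mutated in Diamond-Blackfan anaemia, read 13.10 and 13.14 in WT cells with doxycycline and 13.02 and 12.95 without it, against 12.87 and 12.87 in F266A cells with doxycycline and 12.86 and 12.93 without it. It fell by 0.25 ± 0.07 with the mutant (adjusted p = 0.0191, limma), and each of its 5 tested probe sets had a negative difference. The probe set with a mean of 10.62 gave -0.62 ± 0.07 and the 4 with means of 13.06 to 14.04 gave -0.21 to -0.12. Without any 1 of the WT +dox or F266A +dox arrays the call of Rps24 ended (-0.27 to -0.23, adjusted p between 0.0567 and 0.0882). With the brightest probe set alone, Rps20 was at -0.06 (adjusted p = 0.52, limma) and Rps24 at -0.12 (adjusted p = 0.202, limma).

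Of the 60S subunit 4 genes were called. Rpl37 read 11.32 and 11.30 in WT cells with doxycycline and 10.99 and 10.89 without it, against 10.80 and 10.90 in F266A cells with doxycycline and 10.95 and 10.81 without it. Both WT +dox arrays were above all others, and the other groups overlapped one another. Rpl37 fell by 0.37 ± 0.08 on withdrawal of the wild type (adjusted p = 0.00567, limma) and by 0.46 ± 0.08 with the mutant (adjusted p = 0.00206, limma), and its difference on withdrawal of F266A was 0.03 ± 0.08 (adjusted p = 0.82, limma). The interaction, 0.40 ± 0.11, did not pass (adjusted p = 0.0679, limma).

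Rpl22 fell by 0.27 ± 0.06 on withdrawal of the wild type (adjusted p = 0.0108, limma) and by 0.24 ± 0.06 with the mutant (adjusted p = 0.0181, limma). Of its 3 probe sets, the brightest and the dimmest have the suffix _s_at, which marks sequence shared with transcripts of other genes. The dimmest carried both calls. That probe set read 10.78 and 10.80 in WT cells with doxycycline and 10.03 and 10.12 without it, against 10.12 and 10.09 in F266A cells with doxycycline and 9.67 and 9.74 without it, with differences of -0.71 ± 0.07 and -0.68 ± 0.07 (adjusted p = 0.000281 and 0.000304, limma). It was called in the other comparisons between groups too, at -0.40 on withdrawal of F266A (adjusted p = 0.00889, limma) and -0.37 between the uninduced lines (adjusted p = 0.00715, limma). The other two, with means of 14.10 and 13.43, stayed between -0.05 and -0.02 in the first 2 comparisons. With the brightest probe set alone Rpl22 was at -0.05 and -0.03 (adjusted p = 0.576 and 0.782, limma). With only the probe set that has no suffix it was at -0.03 and -0.02 (adjusted p = 0.769 and 0.871, limma). Without WT +dox replicate 2 or WT -dox replicate 1 the first call ended (-0.26 and -0.24, adjusted p = 0.0514 and 0.0789, limma), and without any 1 of the 4 arrays of its contrast the second did (-0.25 to -0.23, adjusted p between 0.0633 and 0.0769).

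**Figure D2:**
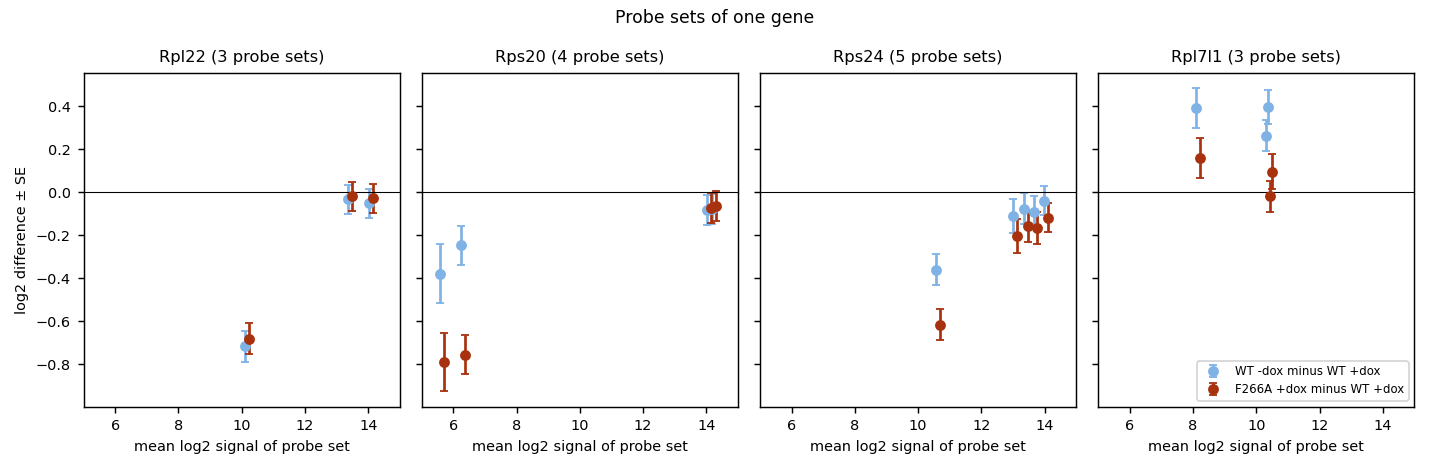
Log2 difference ± SE (limma fit of single probe sets, 2 arrays per group) against the mean log2 signal of each probe set, for Rpl22, Rps20, Rps24 and Rpl7l1 on WT withdrawal (blue) and with the mutant (red). In Rpl22, Rps20 and Rps24 the probe sets near 14 lie close to 0 and the dimmer ones below it. The lowest point, -0.79 for Rps20, is a probe set that passed the minimum only in WT arrays. On WT withdrawal the 3 probe sets of Rpl7l1 lie between 0.26 and 0.40.

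Rpl14 and Rpl27a were each called in 1 comparison. Rpl14 read 9.04 and 8.98 in WT cells with doxycycline and 9.13 and 9.08 without it, against 8.88 and 8.94 in F266A cells with doxycycline and 9.30 and 9.23 without it, and it rose by 0.36 ± 0.07 on withdrawal of F266A (adjusted p = 0.00696, limma). The F266A -dox arrays were above all others, and without F266A +dox replicate 1 the call was lost narrowly (0.33, adjusted p = 0.0532, limma). Rpl27a read 8.64 and 8.54 in WT cells with doxycycline and 8.68 and 8.57 without it, against 8.37 and 8.31 in F266A cells with doxycycline and 8.18 and 7.99 without it. All F266A arrays were below all WT arrays, and the difference passed the test without doxycycline (-0.54 ± 0.09, adjusted p = 0.00163, limma, and -0.28, adjusted p = 0.0284, with a probe set below the minimum averaged in) but not with it (-0.25 ± 0.09, adjusted p = 0.0548, limma). Rps25, Rpl37, Rpl14 and Rpl27a were each measured by 1 tested probe set, as was Rps6.

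**Figure D3:**
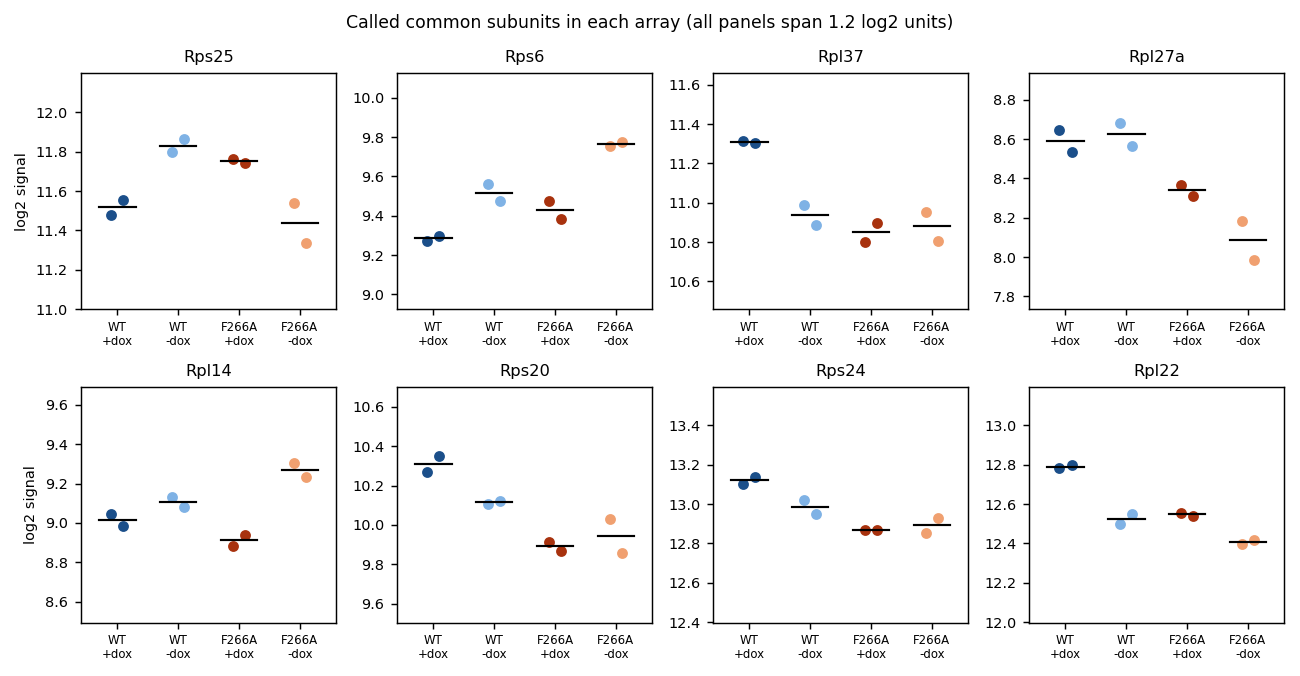
Log2 signal (vertical axis, panels of equal span) of the 8 called common subunits in the 4 groups, with 1 point for each array and a line at the group mean of 2 arrays. Rps25 rises on withdrawal in WT and falls in F266A, Rps6 is higher in -dox in both lines, and Rpl37, Rps20, Rps24 and Rpl22 are highest in WT +dox.

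Among common subunits, those with the highest signal had the smallest differences. The 22 with a mean above 13 had differences between -0.18 and 0.10 over the 4 comparisons between groups. In each direction 8.94% to 16.1% of all genes were called in these comparisons, and 2.21% and 2.94% in the interaction. None of the 22 was called by limma in these or in the interaction. At an unadjusted p under 0.05 there were 3, all falls with the mutant, where 2164 of all 11940 genes fell. The other 19 held every call among common subunits. The 3 highest were Rplp2, an acidic protein of the P stalk that recruits the translation GTPases, with 14.30 to 14.44 over the 8 arrays, Rpsa, also known as a laminin receptor, with 14.22 to 14.30, and Rps2 with 14.23 to 14.30. Rplp0, the base of the stalk, read 14.06 to 14.12. The 3 lowest were Rpl39, Rps27 and Rpl27a. Signals of different probe sets are not a measure of relative mRNA amounts, and the highest value of the whole table was 14.62. In Rpl22 and Rps20 the probe sets above 13 differed by -0.07 to -0.02 with the mutant. The dimmest of Rpl22, an _s_at probe set, differed by -0.68, and that of Rps20 with a mean of 6.30 by -0.75. The other dim one of Rps20 (-0.79) passed the minimum only in WT arrays, so its difference depends on values near background. In the other genes with tested probe sets on both sides of 13, the dimmest one went either way with the mutant. It gave -0.62 to -0.10 for Rps24, Rpl35, Rpl13a, Rps18, Rpl7, Rpl27 and Rps3. For Rpl37a, Rpl41, Rps4x and Rps9 it gave -0.01 to 0.06, and for Rps10 0.23. The last rose on withdrawal of the wild type (0.43, adjusted p = 0.00617 in a limma fit of single probe sets). Some of these dimmest probe sets lay near the minimum of 5.64, where differences can be background. That of Rps3 (mean 5.17, -0.10 ± 0.21) exceeded it only on 1 F266A -dox array. That of Rpl35 (mean 5.73) was below it on both F266A +dox arrays, and those of Rps18 and Rps4x had means of 5.96 and 6.02. In genes such as Rpl22 and Rps20, a small difference of a bright probe set thus does not show that the amount of RNA stayed constant. The part of compression near the top of the scale was not tested. Spearman's rho between signal and the size of the difference was -0.38 to -0.57 over the 46 genes in the 5 comparisons, a description over genes that share the same arrays. Of 40 other genes with a mean above 13, 7, 5, 2 and 3 were called in the 4 comparisons between groups and 0 in the interaction. On WT withdrawal, with the mutant, on F266A withdrawal and between the uninduced lines, 2.5%, 7.5%, 0% and 2.5% of them were higher. In the same order 15%, 5%, 5% and 5% were lower. Only the falls on WT withdrawal came near the share of all genes (15.4%), so low shares of calls were not particular to bright subunits.

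The count for bright subunits depended on how the variance was estimated. Duplicates of the ribosomal protein genes differed little (median SD 0.02, against 0.06 for all genes), and a common prior gave them a median SE of 0.06. With a prior that follows the signal (trended and robust), the SE of the 22 bright subunits was 0.03. Of all 46 genes, 9 then fell on withdrawal of the wild type, against 17% of all genes, and 16 fell with the mutant, against 14.1% of all genes. These included 3 and 8 of the 22 bright subunits, the lowest at -0.11 and -0.18. A SAM-type statistic, closer to the study's own test, found 12 and 19 falls among the 46, but its share over all genes is not given here. It also called more falls among mitochondrial ribosomal proteins, 11 and 13 against 1 and 5 by limma. Among genes of ribosome biogenesis it called 0 and 1, against 0 and 0. The fold threshold of the study, 2-fold, left 0, 0, 0 and 1 of the 46 genes called in the 4 comparisons, the last being Rpl39l. Over the members of each subunit the median difference with the mutant was -0.03 for the 40S and -0.095 for the 60S.

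**Figure D4:**
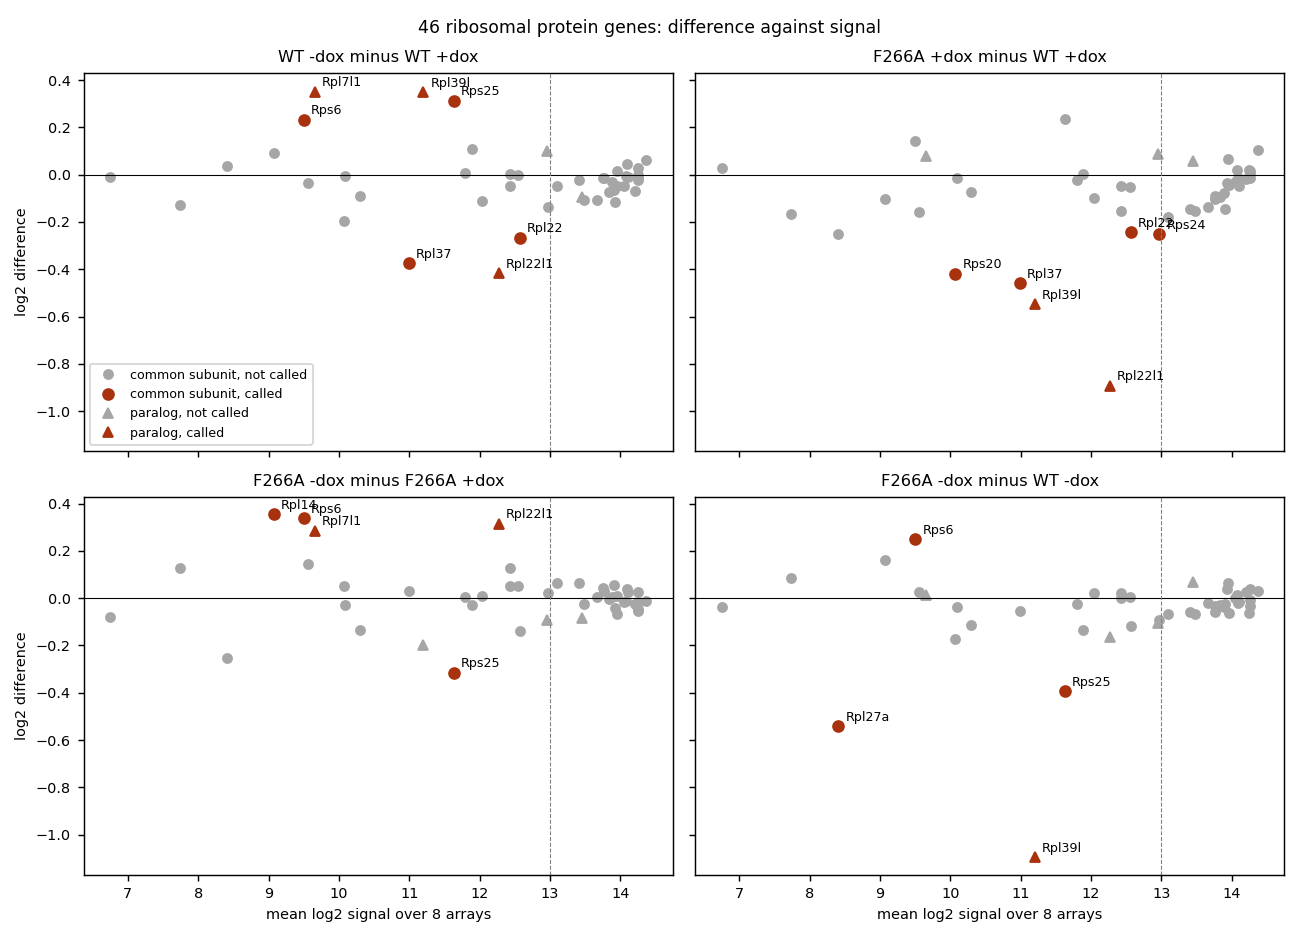
Log2 difference (vertical axis) against the mean log2 signal over 8 arrays (horizontal axis) of 46 ribosomal protein genes in 4 comparisons, with paralogs as triangles, common subunits as circles and called genes in red with their names. To the right of the dashed line at 13, differences stay between -0.18 and 0.10 and no gene is called, and the largest fall is that of Rpl39l, -1.10, between the uninduced lines.

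Many probe sets for ribosomal proteins carry several gene symbols, and these were not tested by gene. Of 110 such probe sets 104 passed the minimum, and 29 member symbols, among them Rplp1, occurred on these alone. The 78 with a mean above 13 had differences between -0.19 and 0.16 in the 5 comparisons, with a median of -0.05 on withdrawal of the wild type and -0.06 with the mutant. Over all 104 the differences reached from -0.51 to 1.27, and 1 probe set, singled out here after its values were seen, changed by 2-fold or more. It carries the symbols Rpl13 and Tax1bp3 and read 8.62 and 8.63 in WT cells with doxycycline and 9.14 and 9.08 without it, against 9.83 and 9.67 in F266A cells with doxycycline and 10.28 and 10.46 without it. All F266A arrays were above all WT arrays, by 1.12 with doxycycline (adjusted p = 7.7e-05, limma) and 1.27 without it (adjusted p = 7.62e-05, limma), and the signal of Rpl13 and that of Tax1bp3 cannot be told apart. Also among the 96 tested probe sets, 39 have the suffix _x_at and 3 _s_at, which mark sequence shared with transcripts of other genes, so that signal of a subunit and of its copies cannot always be told apart. A further 27 have the suffix _a_at, for alternative transcripts of the same gene, as that of Rpl22l1, and 27 have none. Rpl37 and Rps2 are among the genes measured by _x_at probe sets alone.

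The ribosomal protein genes were set beside lists of other genes of the pathway. Of 46 tested genes of ribosome biogenesis and RNA polymerase I, 25 rose and 0 fell on withdrawal of the wild type, 18 rose and 0 fell with the mutant, and 11 rose and 0 fell on withdrawal of F266A, with medians of 0.28, 0.15 and 0.11. Over all genes 16.1% rose and 15.4% fell in the first of these comparisons, 15.9% and 12.5% in the second and 8.94% and 10.6% in the third. Without the expression filter the rises numbered 22, 8 and 4, and with the replicate block 25, 13 and 7. Without doxycycline 3 were higher and 2 lower in F266A (median 0.01), against 14% and 13.4% of all genes. The interaction was negative for 2 of the 46 (4.35%, near the 2.94% of all genes), Pes1 (-0.45, adjusted p = 0.0466, limma) and Utp20 (-0.41, adjusted p = 0.0436, limma). Both of these calls ended without the filter (adjusted p = 0.0895 and 0.0852, limma), with the replicate block (adjusted p = 0.0528 and 0.0701, limma) and on leaving out any array, except F266A -dox replicate 1 for Pes1, with adjusted p from 0.0683 to 0.158. The RNA helicase gene Ddx21 had the largest rise, from 9.45 and 9.53 in WT +dox to 10.24 and 10.26 in WT -dox (0.76 ± 0.07, adjusted p = 0.000116, limma). Pes1, of the PeBoW complex of 60S assembly, rose by 0.65 ± 0.08 (adjusted p = 0.000299, limma), Polr1e, a subunit of RNA polymerase I, by 0.64 ± 0.07 (adjusted p = 0.000185, limma) and Utp20, of the small-subunit processome, by 0.48 ± 0.07 (adjusted p = 0.000849, limma). Over the alternatives run, the rise on withdrawal of the wild type ranged from 0.448 to 0.802 for Ddx21 and from 0.384 to 0.689 for Pes1. With the mutant Ddx21 rose by 0.42 and Pes1 by 0.48. Both of these calls ended where a gene was represented by its brightest probe set. On withdrawal of the wild type the 41 common subunits had 2 rises, 2 falls and a median of -0.02. Among the biogenesis genes, falls at an unadjusted p under 0.05 numbered 0, 1 and 1 in the first 3 comparisons, against 2458, 2164 and 2135 of all 11940 genes. A trended prior or a SAM-type statistic called 1 fall with the mutant. The 2 lists were not tested against each other, and no biogenesis gene had a mean above 13, unlike 22 of the subunits.

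Of 76 genes of the mitochondrial ribosome 25 rose and 1 fell on withdrawal of the wild type (median 0.105), 11 rose and 5 fell with the mutant, 8 rose and 1 fell on withdrawal of F266A, and 6 were higher and 9 lower in F266A without doxycycline. The rises amount to 32.9%, 14.5% and 10.5% of the list in the first 3 comparisons, against 16.1%, 15.9% and 8.94% of all genes. The last 2 are thus close to the shares over all genes. The falls there amount to 1.32%, 6.58% and 1.32%, against 15.4%, 12.5% and 10.6%. Between the uninduced lines 7.89% were higher and 11.8% lower in F266A, against 14% and 13.4%. Without the expression filter 16, 10 and 4 rose and 0, 2 and 0 fell. Mrpl20 rose most, from 10.56 and 10.49 in WT +dox to 11.18 and 11.19 in WT -dox (0.66 ± 0.06, adjusted p = 0.000117, limma). Of 17 further TOP mRNAs of translation factors and their partners, 1 rose and 1 fell on withdrawal of the wild type, against 16.1% and 15.4% of all genes. Eef1d, a nucleotide exchange factor of elongation, rose by 0.40 ± 0.07 (adjusted p = 0.00212, limma), and by 0.43 ± 0.07 on withdrawal of F266A (adjusted p = 0.00319, limma). Eef2, the translocase of elongation, fell by 0.22 ± 0.07 (adjusted p = 0.0369, limma) and by 0.25 ± 0.07 with the mutant (adjusted p = 0.0243, limma). Both calls ended without the expression filter (-0.11 and -0.05, adjusted p = 0.347 and 0.684, limma). The first also ended with median centring, the arrays of the contrast alone or the replicate block (adjusted p = 0.059, 0.0563 and 0.0541, limma) and without WT +dox replicate 1, WT -dox replicate 1 or WT -dox replicate 2 (-0.17, -0.20 and -0.24). The second ended without WT +dox replicate 1, F266A +dox replicate 1 or F266A +dox replicate 2 (-0.20, -0.29 and -0.21). The median of the list lay between -0.04 and 0.00 in the 5 comparisons. Fau, which encodes the 40S protein RPS30 under another symbol, was not called (0.03 ± 0.06 and 0.04 ± 0.06 in the first 2 comparisons).

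**Figure D5:**
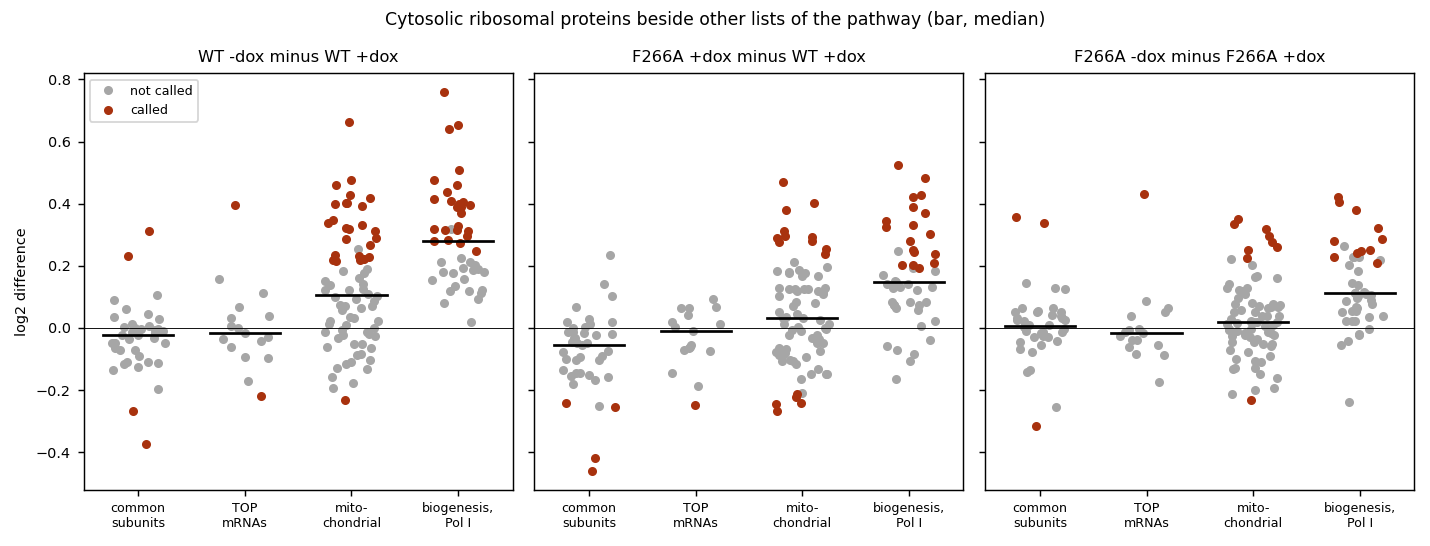
Log2 differences (vertical axis) of the 41 common subunits, 17 other TOP mRNAs, 76 mitochondrial ribosomal proteins and 46 genes of ribosome biogenesis and RNA polymerase I in 3 comparisons, each point 1 gene, red where called, with a bar at the median. The biogenesis genes lie mostly above 0, with medians of 0.28, 0.15 and 0.11, and the common subunits around 0.

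Among 1669 genes whose group means had an SD of at least 0.3, those with a pattern most like that of Rpl22l1 over the 4 group means were Chac1, an enzyme of glutathione breakdown (Pearson's r = 0.992), Tspo2 (0.98), Gm13261 (0.974), the glutathione S-transferase gene Gstm1 (0.957) and Prxl2a (0.956). Chac1 had group means of 9.47 and 8.62 in WT with and without doxycycline and of 7.99 and 8.50 in F266A. Over 4 points such values are a description only, and the means of Tspo2 in F266A with and without doxycycline, 5.38 and 5.60, were below the minimum.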

How the data were processed

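Total RNA of 8 cultures was hybridised to Affymetrix whole-genome mouse arrays. Per the labels and the study's methods, the authors summarised probes by RMA with justRMA in R 2.11.1. The log2 values of 45101 probe sets that they deposited were used unchanged. Symbols came from the platform annotation, and all 48 member genes matched by gene ID to the GRCm38.p6 gene table. Following the study's methods, probe sets above 50 on the linear scale (5.64 on the log2 scale) on at least 1 array were kept, and those of a gene, each with 1 symbol, were averaged, which gave 11940 genes. Control probe sets were left out.

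One model with a mean for each of the 4 groups was fitted to all 8 arrays in limma 3.58.1 (R 4.3.3, with 4 residual and 5.32 prior degrees of freedom). Tests were two-sided, and p-values were adjusted by Benjamini-Hochberg over the 11940 genes. The study's SAM was replaced by limma, with a SAM-type statistic as an alternative. The steps were tested on simulated data. Groups and replicate numbers came from the sample titles. Genes were named by this rule: every paralog and parent, called common subunits, Rplp0, Rplp2 and Rpsa, the 3 highest and 3 lowest common subunits, up to 4 genes of each pathway list, and the 5 genes most like Rpl22l1. Genes with probe sets on both sides of 13 were named as well, with the data in view. Members, lists, tests and the level of 13 were chosen with earlier results of these data known. Other alternatives were the expression filter, the choice of probe sets, quantile normalization, median centring, the arrays of a contrast alone, a replicate block, a trended and robust variance prior, a 2-fold threshold and omission of single arrays. The pair's own residual spread, a crossed block and the fit of single probe sets were chosen later, with the data in view. Arrays give no counts, and their number limits the precision (median SE of a difference 0.08).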

Additional observations from a re-analysis of the deposited data

Results flagged for a closer look

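The response to doxycycline withdrawal differed between the WT and the F266A line for 3 ribosomal protein genes, by the interaction term of limma. Rpl22l1 fell in WT and rose in F266A, with a difference of differences of 0.73 on the log2 scale (adjusted p = 0.00783, limma). Rps25 rose in WT and fell in F266A, with -0.63 (adjusted p = 0.0173, limma). Rpl39l rose in WT and had a negative difference in F266A that did not pass the test, with -0.55 (adjusted p = 0.0116, limma). Each line is a single line, so the version of WDR5 and other differences between the lines cannot be told apart.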

How the results depend on the processing

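The median differences of WT withdrawal, of the mutant with doxycycline and of the uninduced lines stayed below 0 under all alternatives run. That of F266A withdrawal (0.005) was -0.004 with median centring and -0.001 without F266A +dox replicate 2. Counts of called ribosomal protein genes moved. In the order WT withdrawal, mutant with doxycycline, F266A withdrawal, lines without doxycycline and interaction, 4, 0, 4, 1 and 1 were higher and 3, 6, 1, 3 and 2 lower, and 1, 2, 1, 1 and 1 paralogs differed from their parent. Without the expression filter 0 were higher between the uninduced lines. With a minimum of 100 the mutant comparison had 1 higher, F266A withdrawal 3 lower and the interaction 2 higher. Where a gene was represented by its brightest probe set, 3 were lower with the mutant and 2 paralogs differed on WT withdrawal, and Pes1, not called between the uninduced lines, was called lower (-0.25). With only probe sets without a suffix (24 genes and 1 pair, with no value for Rpl22l1, Rps27l or Rpl37), 1 was lower on WT withdrawal and 5 between the uninduced lines, paralogs that differed numbered 0, 1, 0 and 0 on WT withdrawal, with the mutant, on F266A withdrawal and in the interaction, and the interaction median was -0.005, against 0.04. Quantile normalization gave a median of -0.028 with the mutant, against -0.051, 2 lower on F266A withdrawal and an interaction median of 0.013, and median centring one of 0.018. The arrays of the contrast alone gave 1 higher with the mutant. The trended and robust prior gave 9 lower on WT withdrawal, against 17% of all genes. With the mutant it gave 2 higher and 16 lower, where 14.1% of all genes were lower. It gave 4 lower on F266A withdrawal, 8 lower between the uninduced lines and 2 higher in the interaction. For these last 3 counts no share over all genes is given here. Paralogs that differed numbered 3 and 2 on WT and F266A withdrawal. The SAM-type statistic gave 7 higher and 12 lower, 3 and 19, 4 lower on F266A withdrawal, and 2 and 8. Its share over all genes is not given here. It also called more mitochondrial ribosomal proteins, with 41 rises on WT withdrawal against 25 by limma. Its counts thus do not show a change particular to cytosolic ribosomal proteins. With the 2-fold threshold 0 were called in every comparison except 1 lower between the uninduced lines. The replicate block gave 2 lower on F266A withdrawal, against 1, and 7 lower with the mutant, against 6, and left the other counts as they were. Deviations of same-numbered arrays correlated at 0.129 and 0.165 within the lines and at -0.11 to -0.18 between them. The numbers thus do not pair samples across the lines, and whether they pair samples within a line was not settled. With a crossed replicate block 1 was higher with the mutant and 2 lower on F266A withdrawal. On the pair's own residual spread 1, 0 and 0 paralogs differed with the mutant, between the uninduced lines and in the interaction. Leaving out 1 array at a time gave 2 to 4 higher and 2 to 3 lower on WT withdrawal, 0 to 1 and 4 to 7 with the mutant, 1 to 4 and 0 to 2 on F266A withdrawal, 0 to 1 and 3 to 3 between the uninduced lines and 1 to 1 and 0 to 2 in the interaction. The medians were -0.03 to -0.014, -0.072 to -0.046, -0.001 to 0.019, -0.03 to -0.021 and 0.031 to 0.05, and the paralogs that differed 1 to 2, 1 to 3, 1 to 1, 1 to 1 and 0 to 2. A group with 1 array left was assumed to vary like the others. The causes of these shifts were not tested.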
